A study of Mus musculus with 19 samples.

Results

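The small proline-rich genes described here are Sprr1a, Sprr2a1, Sprr2b, Sprr2d, Sprr2e, Sprr2f and Sprr2g, 7 of the 49089 genes in a table of endometrial RNA-seq counts from mice. They were chosen by symbol and matched to the gene identifiers of the table through the GENCODE annotation of GRCm38. The 19 libraries came from wild-type C57Bl/6 females and fell into 5 groups. The group CONT (3 libraries, numbered 1, 2 and 4) was endometrium of virgin, untreated females in estrus, taken in the evening of the day on which proestrus was detected. The groups INT, SVX, SVX_VAS and VAS (4 libraries each) came from females mated with Balb/c males, with tissue taken on day 3.5 post-coitum (pc). The males were intact in INT. In the other mated groups the males had been operated on, but the column names and the sample titles attach different operations to the same library, so these groups carry their column prefix as a bare name and no operation is assigned to them. Mated females were 8 to 14 weeks old when housed with males, the age of the estrous females was not given in the sources used here, and each sample was a pool of tissue scraped from the myometrium.

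Small proline-rich proteins are building blocks of the cornified envelope, the protein shell that transglutaminases cross-link beneath the membrane of squamous epithelial cells. Their genes lie together in the epidermal differentiation complex, and members of the Sprr2 group are also made by simple epithelia. In the mouse uterus Sprr2 genes are known as transcripts of the epithelium that follow the estrous cycle and respond to estrogen. The uterine epithelium is exposed to estrogen up to estrus and to rising progesterone by day 3.5 pc, shortly before the embryo attaches.

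Totals ranged from 12661266 to 31781270 counts per library. VAS libraries 2 and 3 stood apart from all others. On the first principal component of log2 CPM, which held 48.9% of the variance, they lay at 189 and 190, while the other 17 libraries lay below 0. They had 24052 to 24073 genes at 0 counts against 19463 to 21332 elsewhere, and a summed level of the stroma markers of 1718 to 1823 CPM against 6145 to 8472 CPM in the other 14 mated libraries. The logFC of the tested members in VAS is therefore also given without them. No pair of libraries in a group agreed within sampling noise. Nothing in the labels says how the pools were formed from animals, so p-values measure the spread between these pooled samples.

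The 7 genes lie on chromosome 3 (GRCm38), within chr3:92215799-92485895. In the order of the chromosome they are Sprr2a1, Sprr2b, Sprr2d, Sprr2e, Sprr2f and Sprr2g on the plus strand and Sprr1a on the minus strand. Sprr2e (chr3:92352143-92353449) and Sprr2f (chr3:92365187-92366442) are direct neighbours with 11737 bases between them. Each of the 7 main transcripts has 2 exons, and the coding sequence starts and ends in 1 of them, so the first exon is untranslated. Sprr2g is annotated as a polymorphic pseudogene. None of the 7 shares an exonic base with a gene on the opposite strand.

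The Sprr2 copies resemble each other closely, which matters for what a read count can tell. The coding sequences of Sprr2e and Sprr2f are each 231 bases long and 90.1% identical, yet at estrus Sprr2f was the most abundant of the 7 genes and Sprr2e was among the least (values below). Both are shown to let this be seen, with capitals for every base that is different or unmatched in the alignment of the pair. They were read from the GENCODE transcripts of GRCm38, plus strand, Sprr2e at chr3:92352864-92353094 and Sprr2f at chr3:92365896-92366126.
Sprr2e: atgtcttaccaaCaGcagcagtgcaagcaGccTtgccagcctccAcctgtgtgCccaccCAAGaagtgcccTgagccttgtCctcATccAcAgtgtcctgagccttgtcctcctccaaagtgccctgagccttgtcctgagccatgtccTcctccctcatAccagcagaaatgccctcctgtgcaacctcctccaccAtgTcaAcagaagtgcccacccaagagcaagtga
Sprr2f: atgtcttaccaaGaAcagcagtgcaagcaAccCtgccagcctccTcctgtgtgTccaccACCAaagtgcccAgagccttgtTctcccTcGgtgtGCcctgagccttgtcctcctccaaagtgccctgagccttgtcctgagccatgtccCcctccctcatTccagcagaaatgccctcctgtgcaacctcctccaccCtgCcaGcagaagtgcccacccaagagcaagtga
Most of the differences lie in the first part of the sequence, and the stretch in the middle is identical. Shifted against itself by 27 bases, the Sprr2f coding sequence matched itself at 46.6% of bases, and Sprr2b at 58.1%. Sprr1a did so at a shift of 24 bases, with 63.0% of bases the same. This repeat of a short proline-rich unit is the hallmark of the family, and the unit is 1 codon shorter in Sprr1a than in the Sprr2 genes. Sprr1a shared only 39.0 to 48.2% of its coding alignment with the Sprr2 members.

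Despite the likeness, reads can separate most of the members. Of all 75-base windows of the exons, 100% were found in no other exon of the annotation for Sprr1a, Sprr2f and Sprr2g, 99.67% for Sprr2d, 96.06% for Sprr2b and 94.59% for Sprr2e. For Sprr2a1 the share was 5.74%. Its coding sequence is the same as that of Sprr2a2 over all 252 bases and differs from that of Sprr2a3 at 3, and its exons overlap the gene model of Sprr2a2. The counts of Sprr2a1, at most 40 in any library, therefore depend on how reads with several matches were treated and are uncertain. The copy Sprr2a3, of whose windows 52.53% are unique, held far more, with 1791 to 4233 counts in the estrus libraries.

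The stretch before the start of the genes is shown because the members moved together in some libraries and apart in others. Windows of 250 bases before each start were taken from RefSeq promoters (GRCm38.p6), which matched 6 of the 7 members (Sprr2g was not matched). Both strands were searched for the TATA box TATAAA, the octamer ATGCAAAT, the AP-1 motif TGANTCA, the ETS motif CAGGAAGT, the estrogen response element (GGTCA, any 3 bases, TGACC) and the interferon response motif (GAAA, any 2 bases, GAAA). The part printed runs up to the first annotated exon, with any TATA box, octamer (here as its reverse complement ATTTGCAT) or AP-1 match within it in capitals. The TATA box matched in Sprr2b and the AP-1 matches of the Sprr2 genes, 193 to 197 bases before the start, lie outside the printed stretches. It lies at chr3:92339020-92339139 for Sprr2d, chr3:92352023-92352142 for Sprr2e, chr3:92365067-92365186 for Sprr2f and chr3:92316585-92316619 for Sprr2b, all on the plus strand, and at chr3:92485896-92486001 for Sprr1a on the minus strand.
Sprr2d: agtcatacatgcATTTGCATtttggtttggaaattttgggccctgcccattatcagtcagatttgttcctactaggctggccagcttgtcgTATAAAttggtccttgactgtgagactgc
Sprr2e: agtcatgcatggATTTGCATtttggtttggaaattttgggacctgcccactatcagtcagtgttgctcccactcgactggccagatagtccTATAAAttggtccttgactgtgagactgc
Sprr2f: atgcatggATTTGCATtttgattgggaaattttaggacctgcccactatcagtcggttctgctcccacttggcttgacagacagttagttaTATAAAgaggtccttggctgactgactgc
Sprr2b: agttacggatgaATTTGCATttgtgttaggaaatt
Sprr1a: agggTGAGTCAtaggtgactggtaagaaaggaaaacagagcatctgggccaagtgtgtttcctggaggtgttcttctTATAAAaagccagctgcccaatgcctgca
The octamer began 108 bases before the RefSeq start of Sprr2b, Sprr2d and Sprr2e and 112 before that of Sprr2f. It was not matched in Sprr1a or Sprr2a1, and 1.6% of 32851 promoters of this length hold it. A TATA box was matched in 5 of the 6 (12.37% of promoters), and AP-1 in the same 5 (6.75%). The estrogen response element, the ETS motif and the interferon response motif were matched in none of the 6, against 0.06%, 2.69% and 2.98% of promoters. The printed stretches of Sprr2d and Sprr2e were 89.2% identical, those of Sprr2e and Sprr2f 79.0%. Sprr2f thus had the same set of matches as Sprr2b, Sprr2d and Sprr2e. The octamer, TATA box and AP-1 motif were also matched in Sprr2h, Sprr2i and Sprr2k, which had 5, 4 and 0 counts in total. None of the motifs was matched in Sprr2a3, which had 12515 counts in total. Whether the matches bear on the levels was not tested.

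At estrus the endometrium expressed mainly Sprr2f. In CPM, which are counts scaled to library size with TMM factors, Sprr2f stood at 662, 619 and 690 in the estrus libraries 1, 2 and 4. These libraries are nearly level, with a coefficient of variation of 0.0543. Per length (RPKM, CPM per kilobase of exon), Sprr2f was at 1079 ± 58.6 (SD, n = 3). Next came Sprr1a at 54.7 ± 24.2 RPKM and Sprr2g at 49.1 ± 7.76 RPKM, whose ranges overlapped. Sprr2d at 6.82 ± 5.48 RPKM and Sprr2b at 4.58 ± 0.635 RPKM overlapped as well. Sprr2e at 1.85 ± 0.432 RPKM lay below both in every library, and Sprr2a1 at 0.456 ± 0.0214 RPKM was lowest. Of the summed RPKM of the 7 genes, Sprr2f made up 88.1%, 91.8% and 90.8% in the 3 libraries. Its neighbour Sprr2e, with 90.1% of the coding alignment in common, made up 0.112 to 0.178%.

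**Figure D1:**
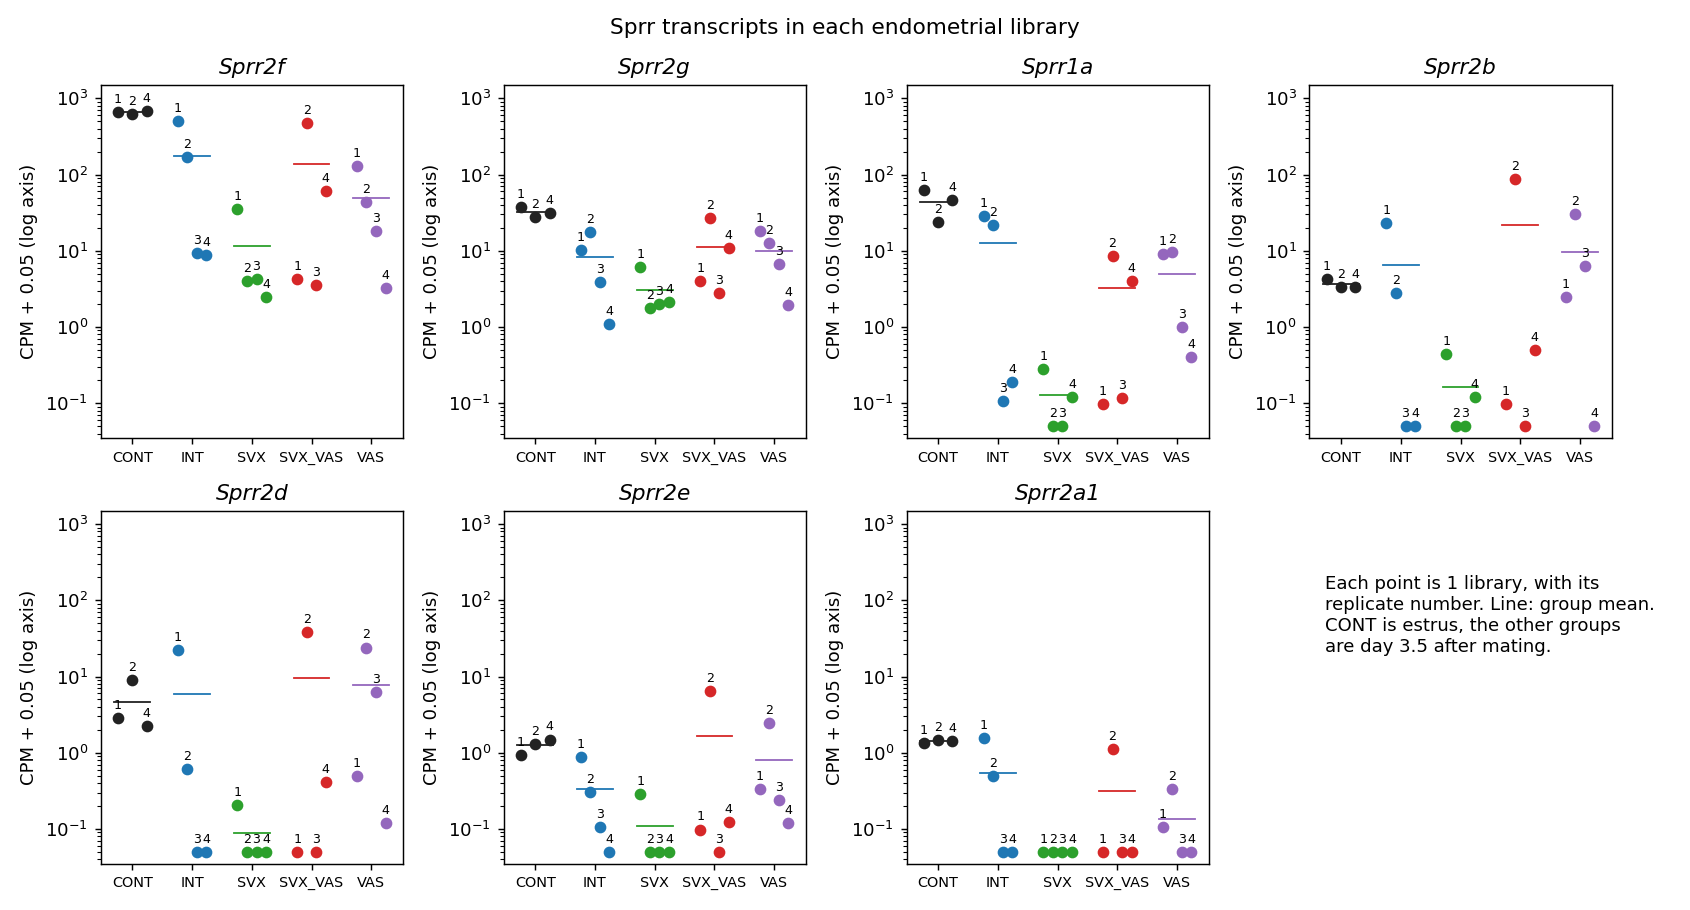
CPM plus 0.05 (log axis) of each of the 7 Sprr genes in every library, by group, with replicate numbers beside the points and a line at the group mean. Sprr2f is tight at estrus (619 to 690 CPM) and spreads from 2.44 to 510 CPM over the 16 mated libraries.

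On day 3.5 pc the same genes ranged from near the estrus level to almost nothing, and they did so within groups. In the INT libraries 1 to 4, Sprr2f measured 510, 172, 9.18 and 8.82 CPM. In SVX it measured 34.8, 4.01, 4.17 and 2.44 CPM. In SVX_VAS the values were 4.20, 475, 3.49 and 60.9 CPM, and in VAS 131, 44.0, 18.0 and 3.18 CPM. All 16 mated libraries lay below the lowest estrus library, and every mated group held at least 1 library under 10 CPM. INT 1 and SVX_VAS 2 came closest to estrus. SVX alone had no library above 34.8 CPM, but its range overlapped that of each other mated group.

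The order of the group means of Sprr2f was CONT (657 ± 35.7 CPM, SD, n = 3), INT (175 ± 236, n = 4), SVX_VAS (136 ± 228, n = 4), VAS (48.9 ± 57.0, n = 4) and SVX (11.4 ± 15.7, n = 4). No neighbours in this order among the mated groups differed beyond their spread. The step from CONT to the mated groups had no overlap.

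Sprr2g, the annotated pseudogene, was also below estrus in all mated libraries, over a smaller range than Sprr2f. It stood at 37.3, 27.3 and 31.2 CPM at estrus. The INT libraries held 10.1, 17.5, 3.88 and 1.05 CPM, and the SVX libraries 6.15, 1.73, 1.97 and 2.08 CPM. In SVX_VAS it was at 4.01, 26.7, 2.70 and 10.9 CPM, and in VAS at 18.3, 12.4, 6.72 and 1.91 CPM. None of the 16 mated libraries was at 0. The share of Sprr2g in the summed RPKM was 3.79 to 4.65% at estrus and between 28.1 and 46.5% in INT 3, SVX 2, SVX 3, SVX 4, SVX_VAS 1, SVX_VAS 3 and VAS 4. In INT 4, also under 10 CPM of Sprr2f, it was 9.91%. In SVX_VAS 1, Sprr2g reached 0.892 of the RPKM of Sprr2f (95% interval of counting 0.653 to 1.22), against 0.0413 to 0.0528 at estrus.

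Sprr1a is the only member outside the Sprr2 group, and its product is a cornified envelope precursor as well. Its level at estrus was 62.5, 23.7 and 45.9 CPM. INT 1 and INT 2 held 28.3 and 21.7 CPM, INT 1 thus within the estrus range, and INT 3 and INT 4 held 0.0570 and 0.140 CPM, which are 1 and 2 counts. Over the whole SVX group there were 4 counts, with a highest value of 0.234 CPM. In SVX_VAS the values were 0.0483, 8.59, 0.0659 and 3.97 CPM, and in VAS 9.08, 9.52, 0.941 and 0.353 CPM. The split within INT, with INT 1 and INT 2 high and INT 3 and INT 4 nearly without counts, was like that of Sprr2f.

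Sprr2b and Sprr2d were above the estrus range in some mated libraries. Sprr2b stood at 4.16, 3.27 and 3.34 CPM at estrus. In INT it measured 22.8, 2.71, 0 and 0 CPM, and in SVX 0.389, 0, 0 and 0.0716 CPM. SVX_VAS 2 held 87.1 CPM, the highest value of the gene, while the other SVX_VAS libraries held at most 0.441 CPM. In VAS the values were 2.42, 30.05, 6.21 and 0 CPM. So 4 of the 16 mated libraries (INT 1, SVX_VAS 2, VAS 2 and VAS 3) lay above the estrus range of Sprr2b and 12 below it, 6 of those with no count.

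Sprr2d showed nearly the same picture. At estrus it measured 2.79, 8.94 and 2.20 CPM. INT 1 was at 22.5 CPM, SVX_VAS 2 at 38.0 and VAS 2 at 23.98 CPM, these 3 above the estrus range. VAS 3, at 6.16 CPM, was within it. The other 12 mated libraries held 0 to 0.567 CPM. Across all 19 libraries the log2 profiles of Sprr2b and Sprr2d, each centred on its mean, differed by a root mean square of 0.81, against 1.89 between Sprr2b and Sprr2f and 1.995 between Sprr2d and Sprr2f. On that scale Sprr1a and Sprr2f differed by 1.08, Sprr2g and Sprr2f by 1.62 and Sprr2g and Sprr1a by 1.93. These distances describe libraries that share groups and depth, and were not tested.

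Sprr2e and Sprr2a1 were scarce throughout. Sprr2e stood at 0.892, 1.26 and 1.44 CPM at estrus, and rose above that range in SVX_VAS 2 (6.32 CPM, 114 counts) and VAS 2 (2.43 CPM, 52 counts). It was at most 0.832 CPM in the other 14 mated libraries, 5 of them at 0 counts. Sprr2a1 stood at 1.31, 1.44 and 1.36 CPM at estrus and at 1.51 CPM in INT 1, and 11 of the 16 mated libraries had no count. With 0 counts in all 4 SVX libraries, where 3 counts would be worth 0.215 to 0.236 CPM, no fold is given. Neither gene reached the minimum for the test, 3 CPM in at least 3 libraries. For this minimum CPM were taken on total counts, without TMM factors, and on that scale Sprr2e reached it in 2 libraries and Sprr2a1 in 0. The other 5 members passed.

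**Figure D2:**
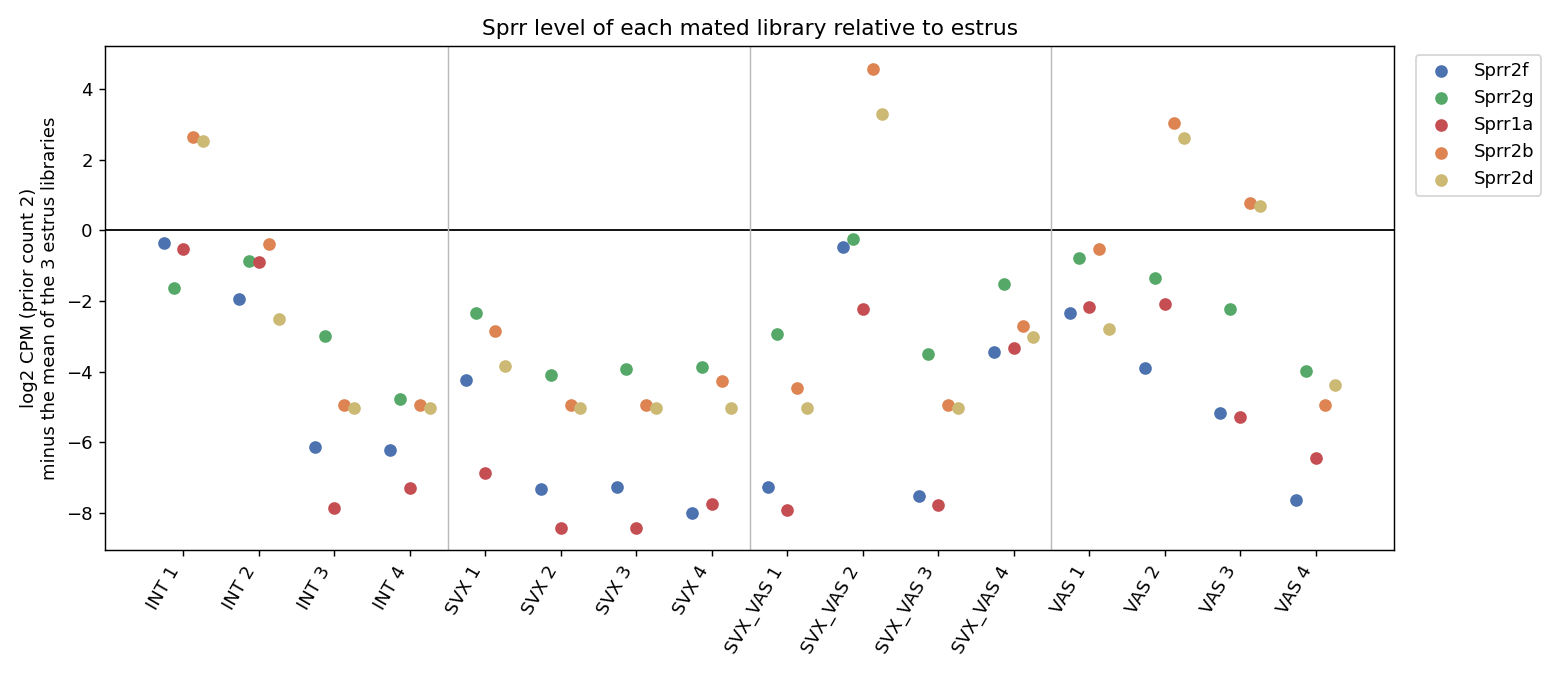
Difference in log2 CPM (prior count 2) of 5 Sprr genes between each of the 16 mated libraries and the mean of the 3 estrus libraries (line at 0). Sprr2b and Sprr2d lie above 0 in INT 1, SVX_VAS 2, VAS 2 and VAS 3, while Sprr2f, Sprr2g and Sprr1a lie below 0 in each of these 4.

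The different course of these copies shows in their ratio, which does not depend on library size. Per length, Sprr2b was at 0.00488, 0.00410 and 0.00375 of Sprr2f in the estrus libraries 1, 2 and 4. In INT 1 the ratio was 0.0346 (95% interval of counting 0.0308 to 0.0389). It reached 0.142 (0.135 to 0.150) in SVX_VAS 2, 0.268 (0.218 to 0.327) in VAS 3 and 0.530 (0.479 to 0.587) in VAS 2. INT 2 and VAS 1 lay between these and estrus, at 0.0122 (0.00883 to 0.0165) and 0.0144 (0.0104 to 0.0195). The intervals cover counting error only. The intervals of these 6 libraries lay above the values of all 3 estrus libraries. Of the other 10 mated libraries 6 had no Sprr2b count, and the rest had at most 6 counts and intervals that took in the estrus values.

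In VAS 2, Sprr2f made up 40.02% of the summed RPKM, with Sprr2b at 21.2% and Sprr2d at 19.5%. VAS 3 was alike, with 50.7%, 13.6% and 15.5%. These libraries also stood apart on the first principal component. SVX_VAS 2 and INT 1, which did not on that component, held 11.001% and 3.05% of Sprr2b against 0.341 to 0.430% at estrus. Whether the 2 VAS libraries share their make-up of Sprr genes with whatever else sets them apart was not tested.

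**Figure D3:**
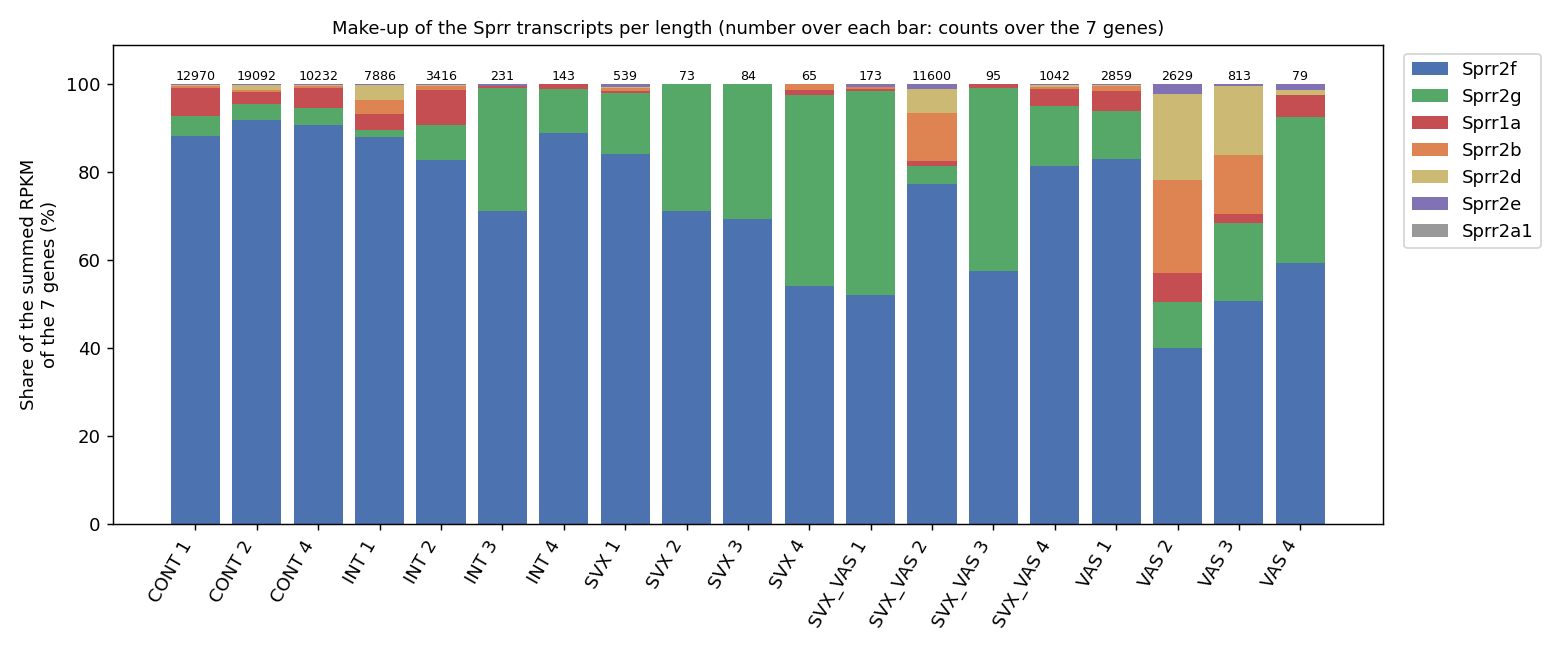
Share of the summed RPKM of the 7 Sprr genes taken by each gene in every library, in percent, with the number of counts over the 7 genes above each bar. Sprr2f makes up 88.1 to 91.8% at estrus and 40.02% in VAS 2, where Sprr2b and Sprr2d take 21.2% and 19.5%.

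The spread of these genes among mated libraries was large beside that of other genes. Ranked by SD of log2 CPM over the 16 mated libraries among 17222 tested genes, Sprr2b was number 5, Sprr2d number 10, Sprr1a number 29, Sprr2f number 81 and Sprr2g number 1503. Their SDs were 3.33, 3.10, 2.92, 2.63 and 1.39, against a median of 0.26 over all genes tested. Without VAS 2 and VAS 3 the ranks were 7, 21, 10, 19 and 209. At estrus the SD of Sprr2f was 0.079, which ranked number 12655, so the gene was among the steadier ones there. Sprr2d, with an SD of 1.05 and rank 79, was the least steady of the 5 at estrus.

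Comparison of INT with CONT asks how the endometrium differs between estrus and the day before implantation after an intact mating. By edgeR's quasi-likelihood test with Benjamini-Hochberg adjustment, with a call at an FDR of 0.05 or less and a logFC (log2 fold change) of at least 0.58 in size, 0 of the 5 tested Sprr members were called, against 33.6% of all genes tested in either direction and 12.7% lower. Mating, cycle stage and day differ together between CONT and the mated groups and cannot be told apart. By the study's methods the hour of collection differed with them, late evening at estrus and noon on day 3.5 pc. Sprr2g had a logFC of -1.98 (SE 0.86, FDR 0.0705) and was lower in 4 of 4 libraries. It was the only member with an unadjusted p under 0.05, as were 54.1% of all genes tested. DESeq2 called 1 member (Sprr2g) and limma-voom 2 (Sprr1a and Sprr2g), against 5953 and 6159 of 17222 genes. The logFC was -1.91 (SE 1.57) for Sprr2f and -1.81 (SE 1.46) for Sprr1a, with FDRs of 0.342 and 0.332, and without INT 1 it was -3.37 and -2.59. Without INT 2, edgeR called Sprr2g (logFC -2.68). For Sprr2b it was 0.82 (SE 2.05) and for Sprr2d 0.29 (SE 2.02), and both turned negative without INT 1 (-1.98 and -4.58). Sprr2e, Sprr2f and Sprr2g did not overlap between the groups, all lower in INT, as did 31.3% of all genes tested. The median logFC of the 5 tested members was -1.81, against -0.01 over all genes tested.

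In SVX against CONT, 3 of the 5 tested members fell, namely Sprr1a, Sprr2f and Sprr2g, against 18.5% of all genes tested called lower and 41.6% in either direction. With Sprr2d, 4 had an unadjusted p under 0.05, as had 61.2% of all genes tested. Sprr1a fell by 9.05 on the log2 scale (SE 2.23, FDR 0.00246), from 2319 counts over the estrus libraries to 4. Sprr2f fell by 5.86 (SE 1.83, FDR 0.0119), and Sprr2g fell by 3.42 (SE 0.91, FDR 0.00443). Each was lower in 4 of 4 libraries. Over the alternatives run, the FDR of Sprr1a ranged from 6.31e-07 to 0.0769, with limma-voom above the threshold, and those of Sprr2f and Sprr2g stayed between 4.87e-05 and 0.0439. Sprr2b (logFC -4.89, SE 2.76, FDR 0.143) and Sprr2d (logFC -6.70, SE 3.11, FDR 0.0774) were not called by edgeR, with 6 and 2 counts over the 4 SVX libraries. DESeq2 called 4 members, Sprr2d among them, and limma-voom 2 (Sprr2f and Sprr2g), against 7256 and 7278 of 17222 genes. In pooled counts Sprr2f was 58.5-fold lower than at estrus (95% interval of counting 53.9 to 63.6) and Sprr2g 10.5-fold lower (8.95 to 12.5). SVX 1 held 447 of the 589 SVX counts of Sprr2f, and without it the logFC was -7.54 for Sprr2f, -10.42 for Sprr1a, -4.04 for Sprr2g, -6.80 for Sprr2b and -9.30 for Sprr2d. The pooled counts put Sprr2d 149-fold lower than at estrus (95% interval of counting 41.0 to 1239), but both SVX counts came from SVX 1 and 249 of the 325 estrus counts from CONT 2, without which its logFC was -5.78. All 7 members lay below estrus without overlap, as did 35.7% of all genes tested. The median logFC of the tested members was -5.86, against -0.01 over all genes tested.

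In SVX_VAS against CONT, 0 of the 5 tested members were called by edgeR (of all genes tested, 16.5% were called lower and 38.6% in either direction). Sprr1a came nearest, with a logFC of -3.79 (SE 1.57, FDR 0.0512) and 4 of 4 libraries lower, and was the only member with an unadjusted p under 0.05 (58.7% of all genes tested). DESeq2 called 1 (Sprr1a) and limma-voom 2 (Sprr1a and Sprr2g), against 6747 and 6991 of 17222 genes. Without SVX_VAS 2 edgeR called 3 (against 6858 of 17200 genes), namely Sprr1a, Sprr2f and Sprr2g, with logFC of -5.07, -4.86 and -2.45. With that library in, Sprr2f was at -2.27 (SE 1.58, FDR 0.242) and Sprr2g at -1.53 (SE 0.86, FDR 0.146). The logFC of Sprr2b was 2.61 (SE 2.17, FDR 0.334) with it and -4.52 without it, and that of Sprr2d 1.04 (SE 2.05, FDR 0.708) and -5.36, so that 1 library set the direction of both. Sprr1a, Sprr2a1, Sprr2f and Sprr2g did not overlap with estrus and were lower, as were 34.0% of all genes tested. The median logFC of the tested members was -1.53, against -0.02 over all genes tested.

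In VAS against CONT, 0 of the 5 were called by edgeR as well, with 17.3% of all genes tested called lower and 40.6% in either direction. Sprr2f had a logFC of -3.75 (SE 1.66, FDR 0.0647) and was the only member with an unadjusted p under 0.05 (61.6% of all genes tested). DESeq2 called 1 (Sprr2f) and limma-voom 2 (Sprr1a and Sprr2g), against 7115 and 8758 of 17222 genes. For Sprr1a and Sprr2g the logFC was -3.14 (SE 1.52, FDR 0.0888) and -1.69 (SE 0.86, FDR 0.102). The same 4 members as in SVX_VAS lay below estrus without overlap, against 28.3% of all genes tested. The median logFC of the tested members was -1.69, against -0.07 over all genes tested. Without VAS 2 and VAS 3 the logFC of Sprr2f was -3.30 (FDR 0.224), that of Sprr1a -3.20 (FDR 0.151) and that of Sprr2g -1.65 (FDR 0.216), with 0 called. Without VAS 1 it was -4.91 for Sprr2f, which edgeR then called, as it did without SVX_VAS 2. Leaving out VAS 2 and VAS 3, Sprr2b moved from 1.44 to -1.49 and Sprr2d from 0.71 to -4.07. These comparisons share the estrus libraries, so their values are not independent of each other.

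**Figure D4:**
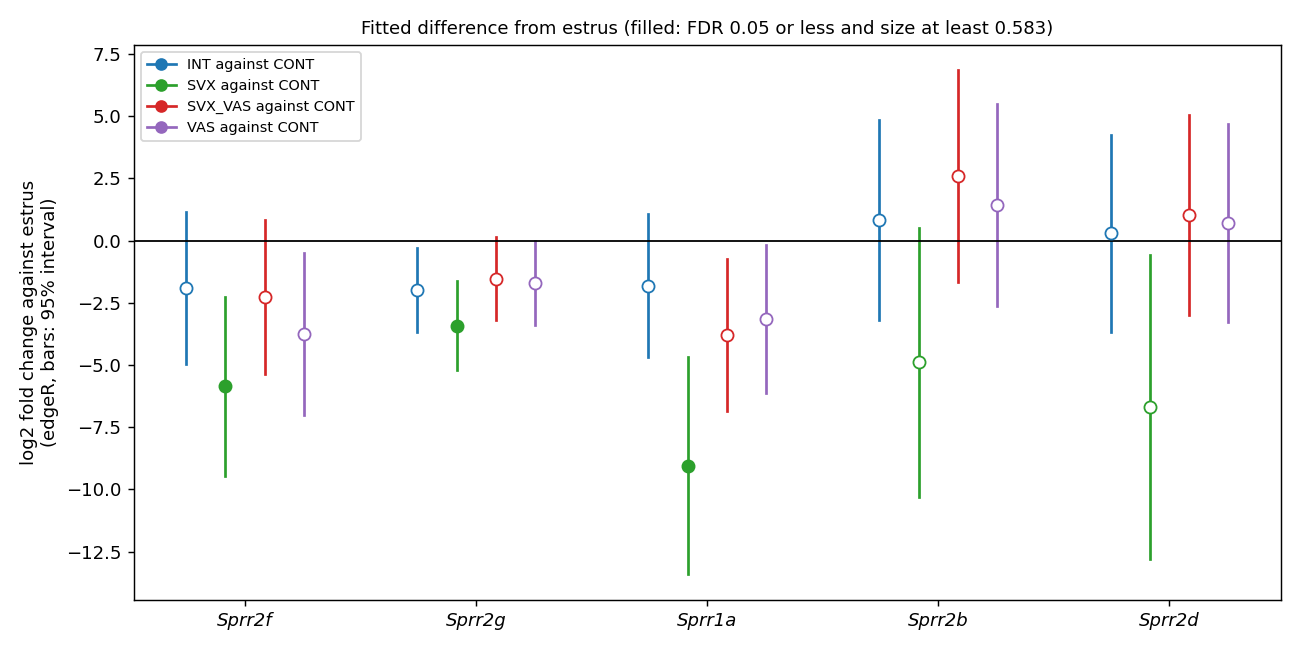
Fitted log2 fold change against estrus of the 5 tested Sprr genes in the 4 mated groups, filled where the FDR is 0.05 or less and the size at least 0.58. The 95% intervals are normal intervals from the SE and are narrower than the F test would give. In VAS those of Sprr1a and Sprr2g leave out 0, though edgeR's unadjusted p was above 0.05 for both. Only Sprr2f, Sprr2g and Sprr1a in SVX are filled, at -5.86, -3.42 and -9.05.

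The comparisons with INT ask what the operation on the male changed. In SVX against INT, 0 of the 5 tested members and 0 of 17222 genes were called by edgeR (0% in either direction). The logFC was -7.24 (SE 2.15) for Sprr1a, -6.99 (SE 3.05) for Sprr2d, -5.71 (SE 2.68) for Sprr2b and -3.95 (SE 1.65) for Sprr2f, and for each of these 4 the unadjusted p was under 0.05, as it was for 4.35% of all genes tested. Their FDR was near 1. DESeq2 called 3 genes, 1 of them the member Sprr1a, and limma-voom 0. Without INT 1 the logFC was -2.12 for Sprr2d, -2.92 for Sprr2b and -2.48 for Sprr2f, so that much of their size rested on that library, while Sprr1a was at -6.47. Without SVX 1 the logFC was -8.61 for Sprr1a, -9.59 for Sprr2d, -7.62 for Sprr2b and -5.63 for Sprr2f. All 7 overlapped between the groups, since INT 3 and INT 4 reached down to the SVX values, while 1.25% of all genes tested were lower without overlap. For Sprr2f the values of INT 3 and INT 4 (9.18 and 8.82 CPM) lay between those of SVX 1 (34.8 CPM) and SVX 3 (4.17 CPM).

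In SVX_VAS against INT and in VAS against INT, 0 members and 0 genes were called by edgeR (0% in either direction), no member had an unadjusted p under 0.05 (1.97% and 10.6% of all genes tested did), and DESeq2 and limma-voom called 0 members in either. All 7 members overlapped, where 0.790% and 0.598% of all genes tested were lower without overlap. The 95% intervals of the logFC were wide. That of Sprr2f ran from -3.20 to 2.48 in SVX_VAS and from -4.77 to 1.10 in VAS. Both take in a fall of over 3 log2 units, and these libraries do not show the groups to be alike. Without VAS 2 and VAS 3 the logFC in VAS against INT was -1.39 for Sprr2f (-1.84 with them), -1.38 for Sprr1a (-1.33) and 0.33 for Sprr2g (0.28). The count of 0 genes depended on the setting. In VAS against INT 576 genes were called without VAS 1, 134 without VAS 4 and 1663 with limma-voom, and DESeq2 called 2 genes in SVX_VAS against INT.

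Among the other Sprr genes of the table, only Sprr2a3 was abundant enough to test. It stood at 142, 152 and 136 CPM at estrus and 107 CPM in INT 1, then 25.8, 0.0570 and 0.280 CPM in INT 2 to 4. SVX held 0.0786 to 0.545 CPM, and SVX_VAS 2 held 78.5 CPM where the other 3 SVX_VAS libraries held at most 3.68. VAS ran from 0.0706 to 25.9 CPM. In SVX against CONT it fell by 9.15 on the log2 scale (SE 2.55, FDR 0.00582), and edgeR called it in no other comparison as fitted. Limma-voom did not call it there but called it in INT, SVX_VAS and VAS against CONT, and without SVX_VAS 2 edgeR called it in SVX_VAS and VAS against CONT. Its counts may include reads of the other Sprr2a copies. Sprr2a2 had at most 93 counts in a library, Sprr3 at most 5, and Sprr2h and Sprr2i at most 2. With a minimum of 1 CPM edgeR called Sprr2a2 lower in INT against CONT, with 6854 of 20903 genes called. It did so too with no filter beyond 1 count in total (7102 of 36300 genes). Only 5.34% of the 75-base windows of Sprr2a2 were unique, so its counts are uncertain. Sprr1b, Sprr2k and Sprr4 had 0 counts in all 19 libraries. Sprr1b and Sprr3, known from stratified epithelia, were thus at or near 0.

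The cornified envelope list gathers 30 genes for the other envelope proteins, the cross-linking enzymes and the factors that drive them. In the table, 15 reached the test minimum. In INT against CONT 6 were called lower and 1 higher (median logFC -0.90, against -0.01 over all genes tested). Elf3, an epithelial ETS factor, fell by 2.41 (SE 0.92, FDR 0.0399), the envelope scaffold gene Evpl fell by 1.90 (SE 0.43, FDR 0.00189) and Klf4, a factor of epithelial differentiation, fell by 1.71 (SE 0.51, FDR 0.0113). Tgm1, a transglutaminase that cross-links the envelope, rose by 1.14 (SE 0.37, FDR 0.0167). The calls of Ehf, Elf3 and Tgm1 were lost without CONT 1 or INT 3, which left 4 genes called, all lower, and with only the 2 groups compared. Tgm1 was also not called by limma-voom or without SVX 1, VAS 3 or both VAS 2 and VAS 3, and Elf3 not without CONT 2, CONT 4 or INT 4 or with no filter beyond 1 count in total. Evpl and Klf4 were called under every alternative run. In SVX against CONT 9 were called lower and 1 higher. Ivl, which encodes involucrin, another envelope precursor, never exceeded 1.76 CPM.

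The squamous markers were low throughout. The summed level of the 15 markers was 74.7 to 113 CPM at estrus, 14.8 to 80.3 CPM in INT, 12.7 to 17.8 CPM in SVX, 13.04 to 35.8 CPM in SVX_VAS and 20.9 to 34.2 CPM in VAS. The defining keratins Krt5 and Krt14 ran at estrus from 1.25 to 6.07 CPM and from 0.379 to 10.5 CPM, and in the mated libraries from 0 to 3.67 CPM and from 0 to 3.86 CPM. Of the 7 markers tested, 2 were called lower and 1 higher in INT against CONT, with Serpinb5 at a logFC of -2.77 (SE 1.02, FDR 0.0336), Calml3 at -1.94 (SE 0.63, FDR 0.0182) and Sbsn at 0.76 (SE 0.20, FDR 0.00550), and 6 lower and 1 higher in SVX against CONT. Only Sbsn was called in INT when any 1 of the 3 estrus libraries was left out, while limma-voom called 6, and in SVX the count fell from 7 to 4 without CONT 2. CONT 2, highest in Krt5 and Krt14, was also the estrus library highest in Sprr2d (8.94 CPM) and lowest in Sprr1a (23.7 CPM). The part of squamous cells in the Sprr levels was not tested.

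The general epithelial markers were lower in the mated groups as well. Their summed level over 13 genes was 5386 to 7195 CPM at estrus, 921 to 3355 CPM in INT, 989 to 1381 CPM in SVX, 1150 to 2705 CPM in SVX_VAS and 815 to 3065 CPM in VAS. None of the 13 was at 0 in any group. In INT against CONT 8 were called lower and 0 higher, among them Krt7 (logFC -2.29, SE 0.87, FDR 0.0395) and Cldn7 (-1.66, SE 0.46, FDR 0.00733), and in SVX against CONT 10 were called lower. The count in INT fell to 3, without Krt7, when CONT 1, CONT 4, INT 3 or INT 4 was left out, to 5 without CONT 2, and to 4, also without Krt7, with no filter beyond 1 count in total. Krt7 was also not called without CONT 2 or with only the 2 groups compared. Cldn7 was called in all of these. From bulk tissue, fewer epithelial cells and less RNA per cell cannot be told apart. Most glandular markers went the other way, with 6 of 8 called higher in INT against CONT and Ttr, Cxcl15 and Spink1 up by 6.64, 6.45 and 5.88 on the log2 scale. Lif was the only marker of that list with a negative logFC. It stood at -1.25 (SE 0.59, FDR 0.0901) in INT against CONT, not called, and was called lower in SVX against CONT (-1.56, SE 0.59, FDR 0.0333). The part of these markers in the Sprr differences was not tested.

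The estrogen response list was high in the mated libraries with most Sprr2f and low in most of those with little, but its order was not that of Sprr2f throughout. Its 25 genes summed to 17861 to 20336 CPM at estrus. INT 1 and SVX_VAS 2, the mated libraries with the most Sprr2f, summed to 14462 and 14043 CPM. INT 2 and VAS 1 were next with 7544 and 7045 CPM, SVX_VAS 4 held 5162 and SVX 1 held 4450 CPM, and the mated libraries with less than 10 CPM of Sprr2f held 3725 to 4080 CPM. By this sum VAS 2 and VAS 3 fell outside the order, with 2747 and 2308 CPM. By the median log2 CPM of the list they lay at 6.35 and 6.14, between SVX_VAS 4 (6.55) and SVX 1 (6.07) and above the libraries under 10 CPM of Sprr2f (4.58 to 4.99). Among mated libraries the median was highest in VAS 1 (7.60), above INT 1 (7.36) and SVX_VAS 2 (7.15), which held more Sprr2f, and VAS 3 lay above SVX 1 with less Sprr2f. Ltf, the gene of lactotransferrin and a classic estrogen target in the uterus, was at 1875 to 2848 CPM at estrus, 2157 CPM in INT 1 and 2301 CPM in SVX_VAS 2, and at 27.4 and 45.3 CPM in INT 3 and INT 4. The complement gene C3 was at 3989 CPM in INT 1 and 129 CPM in INT 3. In INT against CONT 9 of 24 tested genes were called lower and 2 higher (median logFC -1.42), with Aqp5 (-2.76, SE 0.72, FDR 0.00464), Greb1 (-2.50, SE 0.77, FDR 0.0132) and Muc1 (-2.25, SE 0.81, FDR 0.0312) lower and Igf1 (2.71, SE 0.32, FDR 1.01e-05) and Igfbp3 (2.47, SE 0.57, FDR 0.00200) higher. The count lower fell from 9 to 4 without CONT 1, INT 3 or INT 4 and to 5 without CONT 2 or CONT 4, each time losing Muc1, while Aqp5 and Greb1 kept their calls. In SVX against CONT 18 were called lower and 3 higher. Pgr, the progesterone receptor gene and also on the list, had a logFC of 0.23 (SE 0.29, FDR 0.544) in INT against CONT.

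**Figure D5:**
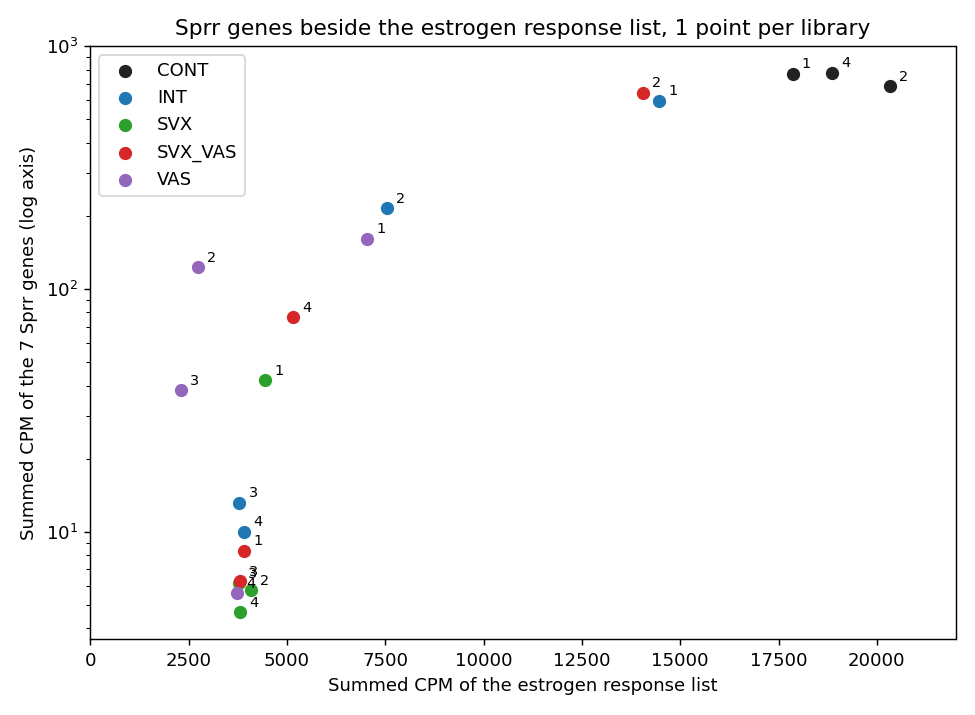
Summed CPM of the 7 Sprr genes (log axis) against the summed CPM of the 25 genes of the estrogen response list, 1 point per library with its replicate number. INT 1 and SVX_VAS 2 lie near the 3 estrus libraries, and VAS 2 (122.7 CPM of Sprr) and VAS 3 (38.2 CPM) have the lowest sums on the list, though not the lowest medians (6.35 and 6.14 on the log2 scale, against 4.58 to 4.99 in the 8 mated libraries under 10 CPM of Sprr2f).

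The progesterone response list ran the other way among the mated libraries. Its median log2 CPM was 2.48 to 3.25 at estrus and 6.51 to 7.29 in INT 3, INT 4, SVX 2, SVX 3, SVX 4, SVX_VAS 1, SVX_VAS 3 and VAS 4, the libraries under 10 CPM of Sprr2f. In the other 8 mated libraries it was 4.67 to 6.31. The sums overlapped, at 3146 to 4466 CPM and 1431 to 3488 CPM. Ihh, a progesterone target in the epithelium, was at 0.476 to 3.41 CPM at estrus and at 18.7 to 53.2 CPM in all 16 mated libraries. It stood at 23.6 CPM in INT 1 and 39.8 CPM in SVX_VAS 2, where the Sprr genes were high. Of the libraries under 10 CPM of Sprr2f, SVX 2 and SVX 3 held 35.5 and 37.2 CPM, less than SVX_VAS 2. The others, INT 3 (48.8 CPM) among them, held 39.98 to 53.2 CPM. Ihh thus did not set SVX_VAS 2 apart from the libraries with little Sprr2f. In INT against CONT 15 of 17 tested genes were called higher and 0 lower (median logFC 3.81), led by Acod1 (8.31, SE 0.87, FDR 4.64e-06), Calca (5.93, SE 0.91, FDR 8.12e-05) and Cyp26a1 (5.38, SE 1.74, FDR 0.0176). Limma-voom did not call these 3, and edgeR did not call Cyp26a1 without CONT 1, CONT 2 or INT 3. The counts were 15 higher in SVX, 14 in SVX_VAS and 15 in VAS. INT 1 and SVX_VAS 2, nearest to estrus in Sprr2f, thus held a median of progesterone targets (5.69 and 6.06) above every estrus library and below the libraries with little Sprr2f.

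Markers of other cell types were counted as well. In INT against CONT 5 of 8 stroma markers, 1 of 6 smooth muscle markers and 4 of 6 macrophage markers were called higher, and 0, 0 and 1 lower. For this and the lists above, 33.6% of all genes tested were called in either direction in INT against CONT and 12.7% lower. In SVX against CONT these shares were 41.6% and 18.5%. Of 4 tested neutrophil markers 1 was called in each direction, and with limma-voom only the lower one. Without CONT 4, 2 smooth muscle markers were called higher. Summed neutrophil markers were 11.01 to 31.8 CPM in 14 mated libraries and 65.1 and 90.9 CPM in VAS 2 and VAS 3, where Sprr2b and Sprr2d were above or within the estrus range. Their part in those levels was not tested.

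The genes whose profile over the 19 libraries came nearest to the mean profile of the 5 tested members, each centred on its own mean log2 CPM, were Egln3 (root mean square difference 0.41), Pla2g2e (0.50), Slc34a2 (0.53), Ptprh (0.56) and Gm35439 (0.57), against a median of 2.61 over all genes tested. Egln3, the gene of an oxygen-sensing prolyl hydroxylase, was at 182 to 211 CPM at estrus, 155 CPM in INT 1, 276 CPM in SVX_VAS 2 and 107 CPM in VAS 2, and at 1.73 to 4.39 CPM in INT 3, INT 4, SVX 2, SVX 3, SVX 4, SVX_VAS 1, SVX_VAS 3 and VAS 4. It was thus above its estrus range in SVX_VAS 2, as Sprr2b and Sprr2d were. Slc34a2, a phosphate transporter gene of epithelia, was at 76.4 to 105.5 CPM at estrus and at 89.4, 85.45 and 79.45 CPM in INT 1, SVX_VAS 2 and VAS 2. This likeness was measured over libraries that the same few differences divide, and is a description.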

How the data were processed

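The members and gene lists were chosen with earlier results of these data known. Per the labels and the study's methods, the authors prepared stranded total RNA libraries, trimmed adapters, aligned paired reads to GRCm38 with STAR and assigned them to genes with featureCounts. What the authors deposited is 1 table of whole-number counts, not normalized, with each gene's exon length. Strand setting and treatment of multi-mapping reads are not given in the sources used here.

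Here, 17222 genes reached 3 CPM (on total counts, without TMM factors) in 3 or more of the 19 libraries and were tested by the quasi-likelihood method of edgeR 4.0.16 (R 4.3.3), with TMM scaling, 1 fit to the 5 groups, no replicate block, and SE from the F statistic. The fit was also run on simulated counts, with the dispersion capped and only genes above a minimum expected count changed. That run does not show how the fit performs on genes with low counts or a spread above the cap. Alternatives were DESeq2 1.42.0, limma-voom (limma 3.58.1), other scaling, other filters, only the groups compared, a replicate block and leaving out libraries. CPM use TMM library sizes, and log2 CPM a prior count of 2. Symbols matched 48349 genes. Coding sequences came from GENCODE transcripts (mouse release 21). Protein sequences were not used here. Sequence work used Biopython 1.88.

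Named genes were the members, the other Sprr genes, up to 3 called genes per direction of each list with the largest logFC in INT against CONT (SVX against INT had none), Ltf, C3, Muc1, Pgr, Ihh, Krt5, Krt14 and Ivl, and the 5 genes nearest in profile. Intervals on counts are exact and cover counting error only. Intervals of the logFC are normal intervals from the SE, narrower than the F test would give.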

Additional observations from a re-analysis of the deposited data

Results flagged for a closer look

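Single libraries stood far from the other 3 of their group (Dixon's ratio above 0.83) in 18 of 75 sets of 4 values examined. The 5% of chance, or 3.75 sets, is no valid comparison here. The values within a library are not independent of each other, and sums of lists repeat single genes. For Sprr2a1 in SVX_VAS and Sprr2d and Sprr2e in SVX, the other libraries were at 0, which fixes the ratio at 1. The sets are therefore a description only.

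SVX_VAS 2 was the high library in 9 of these 18 sets. It held 475.5 CPM of Sprr2f (3.49 to 60.9 in the others), 87.05 CPM of Sprr2b (0 to 0.441), 38.04 CPM of Sprr2d (0 to 0.368), 6.321 CPM of Sprr2e (0 to 0.0736), 1.054 CPM of Sprr2a1 (0 in the others) and 78.52 CPM of Sprr2a3 (0 to 3.68). The list of other Sprr genes summed to 79.35 CPM there, the estrogen response list to 14043 CPM (3804 to 5162) and the squamous list to 35.76 CPM (13.04 to 16.7).

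INT 1 stood apart in Sprr2b at 22.77 CPM (0 to 2.71 in the others) and in Sprr2d at 22.54 CPM (0 to 0.567). SVX 1 did so in Sprr2f at 34.81 CPM (2.44 to 4.17), Sprr2g at 6.153 CPM (1.73 to 2.08), Sprr2d at 0.1558 CPM and Sprr2e at 0.2336 CPM, the last 2 against 0 counts in the other SVX libraries and resting on 2 and 3 counts. VAS 2 stood apart in Sprr2e at 2.426 CPM (0.0706 to 0.282). Of the lists, the epithelial markers reached 3065 CPM in VAS 1 (815 to 1078) and the glandular markers 481.3 CPM in INT 3 (111 to 150).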

How the results depend on the processing

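The calls in SVX against CONT held best. Over 28 alternatives Sprr2f and Sprr2g were called in 28 and Sprr1a in 27, the exception being limma-voom (logFC -8.96, FDR 0.0769). With only the 2 groups compared 5 members were called, as were 8042 of 17222 genes, against 7163 genes as fitted. In the other comparisons 0 members were called as fitted, and in SVX_VAS and VAS against INT 0 were called under every alternative run. In INT against CONT it was 1 with DESeq2, 1 with only the 2 groups compared and 2 with limma-voom. Of 17222 genes, these settings called 5953, 6470 and 6159, against 5791 as fitted. In SVX_VAS against CONT 1 member was called with DESeq2, 1 with only the 2 groups compared, 1 with a minimum of 1 CPM, 1 without VAS libraries 2 and 3 (an alternative chosen after seeing the data) and 2 with limma-voom. In the same order, 6747, 7482, 7779, 7342 and 6991 genes were called, against 6655 as fitted. With the minimum of 1 CPM 20903 genes were tested, and 16949 without VAS libraries 2 and 3. In VAS against CONT 1 member was called with DESeq2, 1 with only the 2 groups compared, 1 with a minimum of 1 CPM (Sprr2a1) and 2 with limma-voom. In the same order, 7115, 5712, 8313 and 8758 genes were called, against 6985 as fitted. In SVX against INT 1 member was called with DESeq2, among 3 genes called. Of the 5 genes nearest in profile, 3 stayed with the 16 mated libraries only. The cause was not tested in any of these.

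Leaving out 1 library at a time, 0 to 1 members were called in INT against CONT (1 without INT 2), 3 to 4 in SVX against CONT, 0 to 3 in SVX_VAS against CONT (3 without SVX_VAS 2, and 1 without INT 3, INT 4, VAS 2, VAS 3 or VAS 4) and 0 to 1 in VAS against CONT (1 without SVX_VAS 2 or VAS 1), and 0 in each comparison with INT. Over all genes, 5912 were called in INT against CONT without INT 2, and 6428 to 7300 in SVX against CONT. In SVX_VAS against CONT it was 6858 genes without SVX_VAS 2 and 6604 to 6685 without the 5 others named. In VAS against CONT it was 6980 genes without SVX_VAS 2 and 8236 without VAS 1.

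The direction of Sprr2b and Sprr2d depended on single libraries and on the tool. With limma-voom their logFC was -3.06 and -4.04 in INT against CONT, -2.59 and -3.86 in SVX_VAS against CONT and -0.19 and -0.98 in VAS against CONT, and that of Sprr1a was 0.88 in VAS against INT. Without VAS libraries 2 and 3 they were -1.49 and -4.07 in VAS against CONT and -2.29 and -4.32 in VAS against INT. Leaving out 1 library at a time, Sprr2b ranged from -1.98 to 1.23 in INT against CONT, from -4.52 to 3.02 in SVX_VAS against CONT, from -0.26 to 1.85 in VAS against CONT, from -5.34 to 4.59 in SVX_VAS against INT and from -1.11 to 3.415 in VAS against INT. Sprr2d ranged from -4.58 to 1.19, from -5.36 to 1.94, from -1.015 to 1.62, from -5.65 to 5.61 and from -1.33 to 5.29 in the same comparisons. In SVX against INT, where no direction turned, Sprr2b ranged from -7.62 to -2.92, Sprr2d from -9.59 to -2.12 and Sprr2f from -5.63 to -2.48, each lowest without SVX 1 and nearest 0 without INT 1. In SVX_VAS against INT, Sprr2f ranged from -2.95 to 1.10 and Sprr2g from -0.47 to 1.15, and Sprr2g ranged from -0.20 to 0.98 in VAS against INT.

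Whether samples with the same number pair cannot be decided here, since samples with different numbers were not compared in this way. For samples with the same number, the correlation of deviations from the group means ran from -0.688 to 0.5831 over 36 pairs. Of these pairs 15 were over 0.1. With a replicate block 1 member was called in INT against CONT, 1 in SVX_VAS against CONT and 1 in VAS against CONT, where 5606, 6411 and 6779 of 17222 genes were called. Under the block the logFC of Sprr2b and Sprr2d was -0.88 and -0.54 in INT against CONT and -0.043 and -0.75 in SVX_VAS against CONT, while in SVX_VAS against INT Sprr2d was at -0.21 and Sprr2f at 0.37.

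Counts of called list genes in INT against CONT also depended on single libraries. Leaving out 1 at a time, they ran from 3 to 10 for the epithelial markers, from 6 to 14 for the estrogen response list, from 4 to 8 for the cornified envelope list and from 1 to 4 for the squamous markers. In SVX against CONT they moved by over 1.5 times only for the squamous (4 to 7) and smooth muscle markers (1 to 2).

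Depth limited the lowest levels, since 3 counts are worth 0.215 to 0.236 CPM in the SVX libraries.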
